A study of Mus musculus with 12 samples.

Results

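Knockdown of *Sbsn* was examined in the 6 libraries of batch 2, out of 12 RNA-Seq libraries in the series. They were chosen by the batch label and the treatment label, and comprise siControl replicates 1, 2 and 3 and siSbsn replicates 4, 5 and 6. The 6 libraries of batch 1 were not used. All 6 libraries came from cultures of primary keratinocytes from newborn BALB/c mice. The cells were first kept in 0.05 mM calcium and then brought to 0.12 mM calcium with 8% serum. Both groups were therefore differentiating, and no culture without siRNA belongs to this batch. Small interfering RNA (siRNA) was given as a pool of 75 pmol, which targeted *Sbsn* in the siSbsn cultures and no gene in the siControl cultures. Transfection took place 24 hours after seeding, and RNA was taken 48 hours later. One pool was used against the gene. The paper states 3 replicates per condition, but the labels do not say which libraries came from separate cultures. The p-values below therefore measure only the spread between these libraries, which may be technical.

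Keratinocytes of the epidermis leave the basal layer, replace the keratins of the basal cell (keratins 5 and 14) by those of the suprabasal cell (keratins 1 and 10), strengthen their desmosomes and finally build the cornified envelope, a shell of cross-linked proteins coated with lipids. Raising calcium starts part of this programme in culture. Suprabasin, the product of *Sbsn*, is a secreted protein of the suprabasal layers and a substrate of the transglutaminases that cross-link the envelope. Its gene lies beside *Dmkn* and *Krtdap*, which encode further secreted proteins of differentiating keratinocytes.

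The total count per library was between 29629909 and 37624743 in siControl and between 27934836 and 49553923 in siSbsn, and 12924 of 21947 loci passed the filter on low counts. Levels are given as CPM, the count of a locus divided by the normalized size of its library and multiplied by 1000000. One library stood apart. On the first principal component siControl replicate 3 lay at 25.8, and the other 5 libraries lay between -8.77 and 1.69. Its counts differed from those of the other siControl libraries with a chi-square per degree of freedom of 28.3 and 50.1, and the other pairs of replicates were between 4.47 and 8.06. The median SD of log2 CPM within a group was 0.118 in siControl, 0.0597 in siSbsn and 0.0604 in siControl replicates 1 and 2 alone. Values without this library are given below beside the gene lists and many of the genes. The library was singled out from these same counts, and leaving it out keeps siControl replicates 1 and 2, whose spread is smaller. The q-values of that fit are therefore descriptive and are no independent support.

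The cells carried keratinocyte markers at a high level. The summed level of 7 such genes was between 21529 and 28081 CPM of all counts. Markers of melanocytes summed to between 710 and 800 and those of fibroblasts to between 366 and 439, with groups that overlapped, and markers of immune cells (6.64 to 8.77) and of Schwann and Merkel cells (12.7 to 15.1) were low. Markers of muscle and pericytes summed to between 688 and 808 in siControl and between 609 and 661 in siSbsn, and markers of endothelial cells to between 6.88 and 7.07 in siControl and between 5.81 and 6.05 in siSbsn, with 2 of 4 and 3 of 8 markers above 1 CPM in every library. For these 2 lists the groups did not overlap, and their part in the results below was not tested. The endothelial marker *Cldn5* and the Langerhans cell marker *Cd207* had no count in any library. In bulk libraries such as these, fewer cells of a type and less RNA per cell cannot be told apart.

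*Sbsn* (mm10 chromosome 7, 30751471 to 30756134, plus strand) checks the treatment labels. It had 393, 349 and 471 CPM in siControl replicates 1, 2 and 3 and 130, 131 and 127 CPM in siSbsn replicates 4, 5 and 6. The 3 siSbsn libraries lay close together and far below every siControl library, at 32.0% of the siControl mean. In edgeR's quasi-likelihood fit *Sbsn* fell by 1.64 on the log2 scale, with a standard error of 0.10 and a Benjamini-Hochberg adjusted p (q) of 0.00056. The log2-fold change was -1.52 without siControl replicate 3. An exact two-sided permutation test over the 6 libraries gave p = 0.1, below which 3 against 3 libraries cannot go. A further row of the table in which reads are shared between *Sbsn* and another name held 5 to 11 counts per library and was not added.

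The neighbours of *Sbsn* showed no such difference. *Dmkn* had 1236, 1131 and 1412 CPM in siControl and 1238, 1288 and 1202 CPM in siSbsn. *Krtdap* had 249, 215 and 298 CPM in siControl and 238, 248 and 245 CPM in siSbsn. In both genes the siSbsn libraries fell within the range of siControl, and the log2-fold changes were -0.019 (standard error 0.085) and -0.06 (standard error 0.11). Both values turned positive without siControl replicate 3, at 0.071 in each case.

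**Figure D1:**
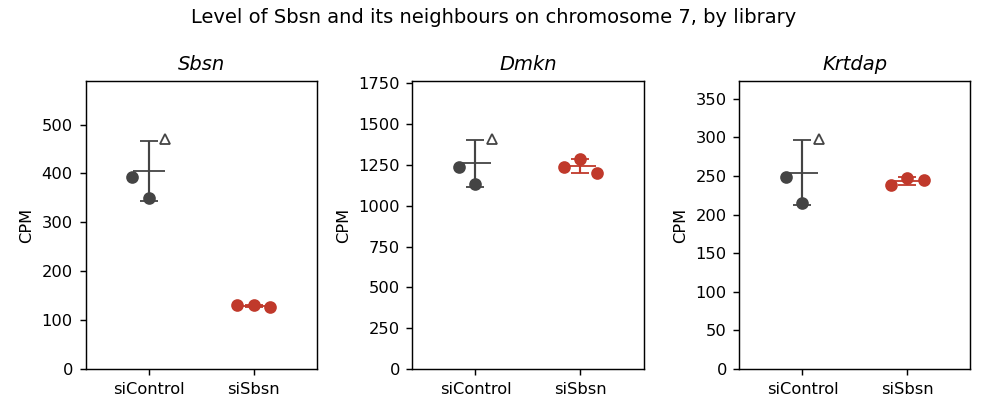
Levels of *Sbsn*, *Dmkn* and *Krtdap* in CPM in each library, with siControl in grey and siSbsn in red. Points are libraries, the open triangle is siControl replicate 3, and bars give the mean and SD of 3 libraries. The siSbsn libraries sit between 127 and 131 CPM for *Sbsn*, below all siControl libraries, and within the siControl range for both neighbours.

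To describe the transcriptome at this degree of knockdown, the thresholds of the study's methods were used, which call a locus when its log2-fold change exceeds 0.5 in either direction and its q is under 0.05. edgeR called 0 loci higher (0%) and 1 locus lower (0.00774% of those tested), which was *Sbsn* itself. At an unadjusted p under 0.05 there were 583 loci higher and 736 lower, and the second smallest q was 0.268. Differences were small throughout, and 97.2% of the loci tested lay within 0.5 of 0 on the log2 scale. Among the 11394 loci with a mean over 1 CPM, 33 had a log2-fold change over 0.5 and 50 had one under -0.5. All 3 siSbsn libraries lay above all 3 siControl libraries at 1206 loci (9.33%) and below them at 1197 loci (9.26%). These counts moved with the scaling, to 863 above and 1568 below with total counts only and to 1013 above and 1423 below with upper quartile scaling.

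The count of calls depended on how siControl replicate 3 was treated, and also on the test and on the filter on low counts. Without this library edgeR called 5 loci higher (0.0383%) and 5 lower (0.0383%), and 55 loci (0.421%) and 60 loci (0.459%) had a q under 0.05 when no limit was set on the fold change. The loci called higher were *Kprp*, *Lce1a1*, *2310050C09Rik*, *Pdlim2* and the joined locus of *Kcnq1ot1* and *Kcnq1*, and those called lower were *Sbsn*, *Krt1*, *Cxcl1*, *Pla2g4e* and *Tll1*. limma-voom with a quality weight for each library kept all 6 libraries and gave siControl replicate 3 a weight of 0.202, where the others had weights between 0.546 and 3.15. It placed 468 loci higher (3.62%) and 542 lower (4.19%) at a q under 0.05. DESeq2, which gave a q to 9202 loci, called 1 locus higher (0.0109%), *Kprp*, and 6 lower (0.0652%). Leaving out any one of the other 5 libraries gave 0 loci higher and 1 lower.

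**Figure D2:**
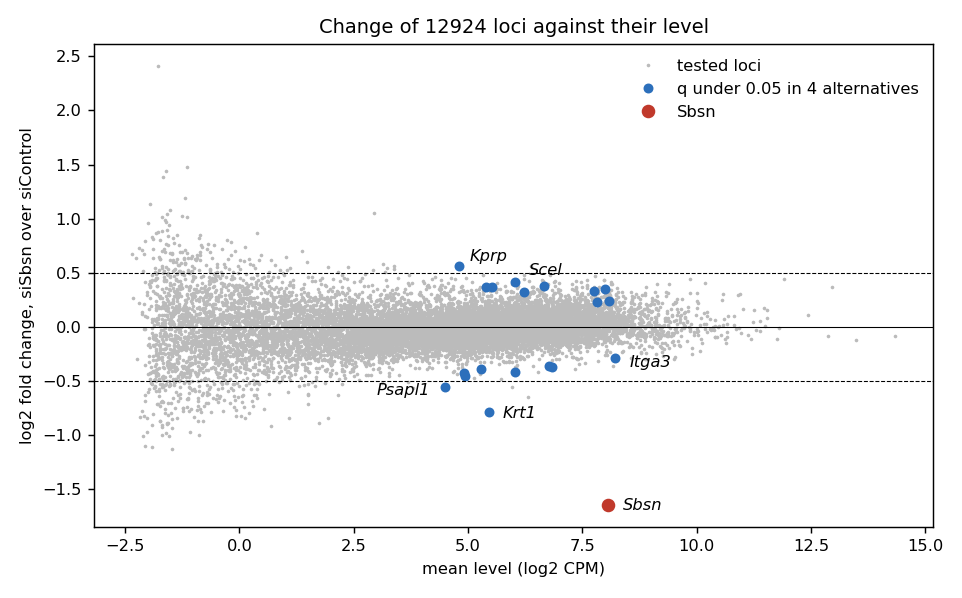
Log2-fold change of each of the 12924 tested loci (vertical axis) against its mean level in log2 CPM (horizontal axis). Dashed lines mark a log2-fold change of 0.5 in either direction, red marks *Sbsn*, and blue marks the other loci with a q under 0.05 in all 4 alternatives. *Sbsn*, at -1.64, lies apart from all loci of a similar level.

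The departure of siControl replicate 3 followed transcript length. Transcript length is that of the longest annotated transcript, and was found for 12336 of the tested loci (95.5%). Loci were split by length into 10 classes of equal size. In the class of the shortest transcripts the median deviation of this library from the mean of the 6 libraries was 0.22 on the log2 scale, and in that of the longest it was -0.33. The other 5 libraries lay between -0.075 and 0.0089 in the shortest class and between -0.017 and 0.11 in the longest. A trend with length was also present between the groups. The median log2-fold change of siSbsn over siControl was -0.12 in the shortest class and 0.16 in the longest, and without siControl replicate 3 it was -0.026 and 0.05. In the shortest class 1.87% of loci had all siSbsn libraries above all siControl libraries, and in the longest 22.4% did. Across loci, which are not independent replicates, Spearman's rho of log2-fold change and length was 0.458 with 6 libraries and 0.152 without siControl replicate 3.

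With the trend of each library on length removed, rho was -0.014. edgeR then called 3 loci higher (0.0243%) and 3 lower (0.0243%) of 12336. The higher loci were *Kprp*, *2310050C09Rik* and *Serpinb6c*, and the lower loci were *Sbsn*, *Krt1* and *Psapl1*. The groups did not overlap at 1305 loci with siSbsn higher (10.6%) and at 1184 loci with siSbsn lower (9.6%). For the gene lists below, medians are given with 6 libraries, with this trend removed and without siControl replicate 3.

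**Figure D3:**
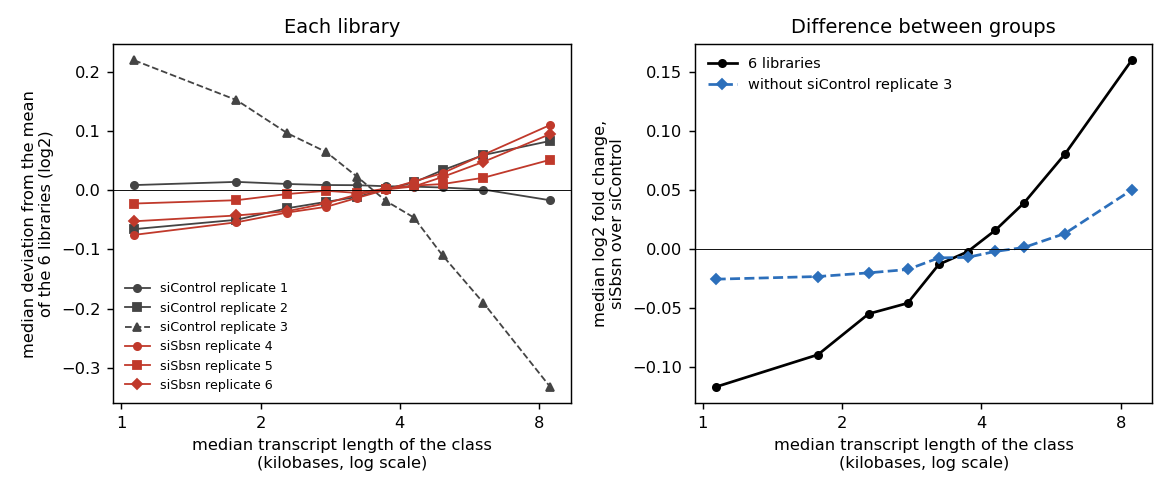
Left, median deviation of each library from the mean of the 6 libraries (log2) in 10 classes of loci ordered by transcript length (log scale, kilobases). Right, median log2-fold change of siSbsn over siControl in the same classes with 6 libraries and without siControl replicate 3. siControl replicate 3 falls from 0.22 to -0.33 across the classes, and the range of the group difference narrows without it.

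A set of 20 loci had a q under 0.05 in all 4 of the fits that treated this library or the test differently, namely the fit without siControl replicate 3, the fit with the length trend removed, limma-voom with quality weights, and DESeq2. These fits use the same libraries and are not independent, and the loci were chosen after their values were seen. Apart from *Sbsn*, none had a q under 0.05 in the edgeR fit of all 6 libraries. 10 of the 20 were higher in siSbsn and 10 were lower, and at each of them the groups did not overlap. The lower loci were *Sbsn*, *Krt1*, *Psapl1*, *Plaur*, *Slc2a1*, *Herpud1*, *Pqbp1*, *Samd4b*, *Itga3* and the joined locus of *AK047551* and *Mid1ip1*. The higher loci were *Kprp*, *Scel*, *Pof1b*, *Grhl1*, *Cdkn1b*, *Mtmr1*, *Sh3bgrl2* and 3 joined loci with *Mtus1*, *Xkrx* and *Ankrd13a*.

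*Krt1* encodes keratin 1, which pairs with keratin 10 in the suprabasal layers. It had 55.4, 64.7 and 45.8 CPM in siControl and 28.1, 37.8 and 30.5 CPM in siSbsn. Every siSbsn library lay below every siControl library, and the siSbsn mean was 58.1% of that of siControl. The log2-fold change was -0.79 (standard error 0.14, edgeR q = 0.318), and without siControl replicate 3 it was -0.92 (edgeR q = 7.62e-06). *Krt10*, the partner of *Krt1*, had 71.9, 75.9 and 75.8 CPM in siControl and 55.6, 63.1 and 54.9 CPM in siSbsn. It too was lower in every siSbsn library, at 77.6% of siControl. The difference was -0.37 in log2 (standard error 0.069, edgeR q = 0.319 with 6 libraries and 0.00488 without siControl replicate 3).

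Below the calling threshold in the edgeR fit, the other 8 of the 10 lower genes with the smallest p, a log2-fold change under -0.5 and groups that do not overlap served varied roles. *Psapl1*, a relative of prosaposin by its name, had 27.1, 23.9 and 29.9 CPM in siControl and 19.2, 16.8 and 18.7 CPM in siSbsn, a log2-fold change of -0.56 (standard error 0.095, edgeR q = 0.318, and 0.00398 without siControl replicate 3). *Ptgds*, a prostaglandin D synthase, had 16.2, 15.1 and 18.2 CPM against 12.2, 11.01 and 10.2 CPM. *Arf5*, a small GTPase of the Golgi, had 75.0, 61.2 and 85.3 CPM against 53.3, 46.4 and 50.8 CPM. All 3 had a siSbsn mean near 68% of that of siControl (67.5% to 68.0%). *Nfkbid*, *Pla2g4e*, *Cxcl1*, *Tll1* and *Nrn1* lay below 7 CPM, with log2-fold changes from -0.84 to -0.62, and encode an inhibitor of the NF-kappaB family, a cytosolic phospholipase, a chemokine for neutrophils, a tolloid-like protease and neuritin.

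The remaining lower genes named here of the shared set come from other processes. *Herpud1*, which acts in the degradation of proteins of the endoplasmic reticulum, had 74.4, 71.3 and 79.9 CPM in siControl and 56.1, 56.5 and 55.8 CPM in siSbsn (log2-fold change -0.42, standard error 0.061, edgeR q = 0.268, and 0.00108 without siControl replicate 3). *Slc2a1*, the glucose transporter GLUT1, had 36.0, 33.7 and 34.0 CPM against 26.5, 24.7 and 25.9 CPM. *Plaur*, the urokinase receptor, had 33.0, 34.9 and 38.1 CPM against 26.3, 24.5 and 26.5 CPM. Each of these 3 genes was at 73.0% to 74.7% of the siControl mean, with little spread within siSbsn.

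The higher genes of the shared set included *Kprp* and *Scel*. *Kprp* encodes a proline-rich protein of differentiating keratinocytes and lies in the epidermal differentiation complex on chromosome 3. It had 23.3, 23.7 and 20.9 CPM in siControl and 37.1, 28.8 and 34.1 CPM in siSbsn, 147% of the siControl mean. Its log2-fold change was 0.56 (standard error 0.099, edgeR q = 0.318, and 0.00398 without siControl replicate 3). *2310050C09Rik*, in the same complex, had 4.04, 3.82 and 4.77 CPM against 6.70, 5.78 and 5.90 CPM, a difference of 0.55 in log2 (standard error 0.12, edgeR q = 0.355, and 0.012 without siControl replicate 3). *Scel* encodes sciellin, a precursor of the envelope, and had 57.5, 56.1 and 53.8 CPM in siControl and 74.8, 72.4 and 76.0 CPM in siSbsn. The 2 groups of *Scel* were each tight and well apart, and its log2-fold change of 0.41 (standard error 0.057, edgeR q = 0.268, and 0.00105 without siControl replicate 3) had the smallest unadjusted p after that of *Sbsn*.

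*Cdkn1b* encodes the cyclin-dependent kinase inhibitor p27. It had 70.9, 64.7 and 63.1 CPM in siControl and 84.8, 83.2 and 81.4 CPM in siSbsn (log2-fold change 0.33, standard error 0.063, edgeR q = 0.319, and 0.00999 without siControl replicate 3). Of the 10 higher genes with a log2-fold change over 0.5 and the smallest p, *Pdlim2* and *Trpv6* (an epithelial calcium channel) lay below 6 CPM and *BC038063* below 12 CPM. The other 5 were at 1.55 CPM or below, *Gm15910*, *Fam196a*, *AK163775*, *AK037768* and *BC021503*. *Gm15910*, with the highest fitted value of all loci, had 3, 4 and 2 counts in siControl and 20, 19 and 14 in siSbsn. *Fam196a* had 6, 9 and 3 counts in siControl and 19, 17 and 17 in siSbsn. Neither had a q under 0.05 without siControl replicate 3 (edgeR q = 0.0515 and 0.266).

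**Figure D4:**
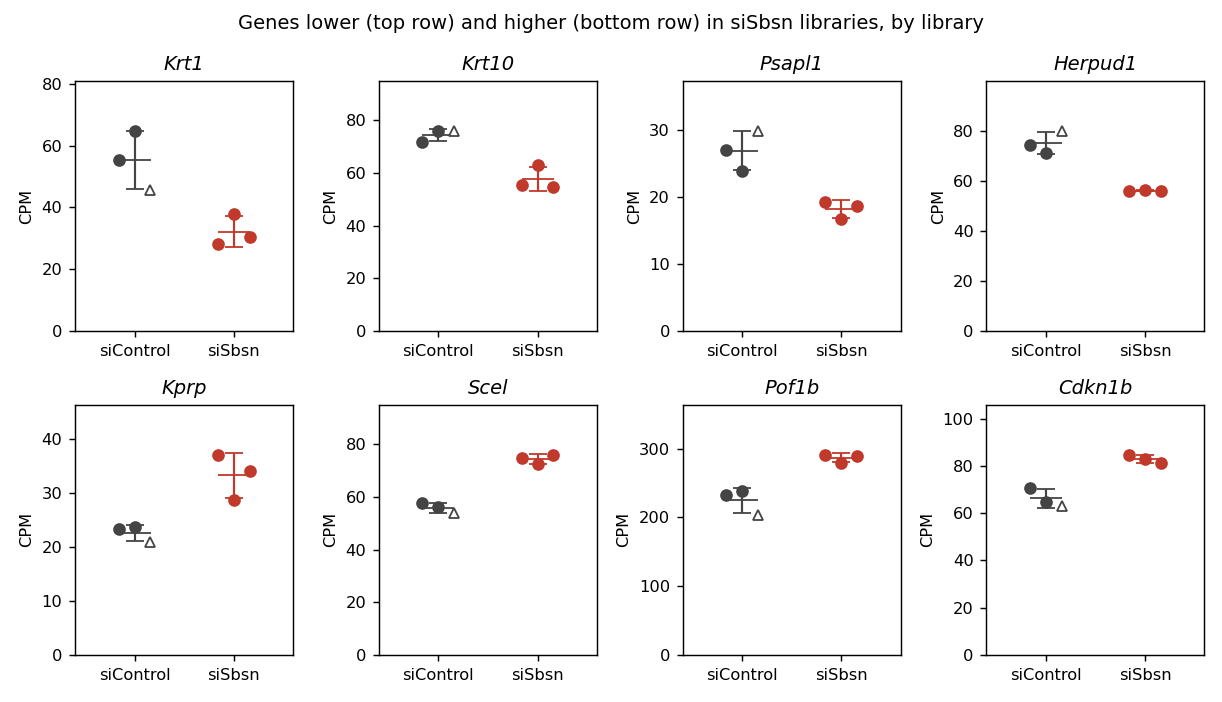
Levels in CPM of 4 genes lower in siSbsn (*Krt1*, *Krt10*, *Psapl1*, *Herpud1*) and 4 genes higher (*Kprp*, *Scel*, *Pof1b*, *Cdkn1b*) in each library. Points are libraries, the open triangle is siControl replicate 3, and bars give the mean and SD of 3 libraries. In all 8 genes no siSbsn library reaches the range of siControl.

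The 250 bases before the annotated start are printed for 4 of these genes, 2 lower and 2 higher, to show what precedes genes on either side of the comparison (RefSeq, build GRCm38.p6, each read 5′ to 3′ on the strand of the gene). Capitals mark TGANTCA, where N is any base, and TATAAA, the TATA box, searched on both strands. TGANTCA is a looser form of the site of AP-1 factors. *Krt1* and *Kprp* were not in the promoter table.
*Psapl1*, lower, chr5:36203771-36204020, plus strand: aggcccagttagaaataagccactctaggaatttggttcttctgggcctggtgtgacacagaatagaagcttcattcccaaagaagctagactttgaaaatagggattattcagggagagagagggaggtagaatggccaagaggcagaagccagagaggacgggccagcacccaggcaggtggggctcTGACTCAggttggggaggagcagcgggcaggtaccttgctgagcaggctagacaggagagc
*Krt10*, lower, chr11:99389365-99389614, minus strand: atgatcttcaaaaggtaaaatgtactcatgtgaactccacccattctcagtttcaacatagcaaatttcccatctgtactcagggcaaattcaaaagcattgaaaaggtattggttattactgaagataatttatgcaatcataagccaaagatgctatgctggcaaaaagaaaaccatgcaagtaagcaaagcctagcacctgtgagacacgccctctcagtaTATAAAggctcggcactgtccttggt
*Scel*, higher, chr14:103513091-103513340, plus strand: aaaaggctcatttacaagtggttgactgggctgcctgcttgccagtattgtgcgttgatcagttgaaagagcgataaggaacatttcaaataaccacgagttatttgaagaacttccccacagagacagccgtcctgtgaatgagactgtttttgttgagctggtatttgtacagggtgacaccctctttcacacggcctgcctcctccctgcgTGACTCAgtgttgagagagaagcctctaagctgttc
*2310050C09Rik*, higher, chr3:92870206-92870455, minus strand: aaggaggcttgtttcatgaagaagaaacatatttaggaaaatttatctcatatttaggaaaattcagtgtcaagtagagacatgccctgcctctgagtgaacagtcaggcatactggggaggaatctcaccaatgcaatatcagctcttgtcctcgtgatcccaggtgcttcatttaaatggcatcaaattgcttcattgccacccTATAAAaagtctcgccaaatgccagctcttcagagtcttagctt
TGANTCA preceded *Psapl1* and *Scel*, and TATAAA preceded *Krt10* and *2310050C09Rik*. These 4 genes were picked by hand, so how the motifs divide between the directions is no result. TGANTCA was present before 6.75% of 32841 annotated starts and TATAAA before 12.4%. Among the 7687 tested genes with a promoter in the table the shares were 4.7% and 6.54%. Of the 14 shared loci that matched the promoter table by name, 4 held TGANTCA and 0 held TATAAA. The 4 were *Sbsn*, *Plaur* and *Psapl1*, lower in siSbsn, and *Scel*, higher. *Krt10* and *2310050C09Rik* are not among the shared loci. A match to these letters is a description and shows no binding.

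Gene lists were described by how many members had groups that do not overlap and by their median, beside the same over all loci tested (9.33% above, 9.26% below, median log2-fold change -0.0072). At a q under 0.05, edgeR without siControl replicate 3 placed 0.421% of all loci higher and 0.459% lower. With quality weights these shares were 3.62% and 4.19%. Only *Sbsn* passed the test among all list members in the edgeR fit, so the members named below carry values and no call in that fit.

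Precursors of the cornified envelope were mixed. Of 47 tested members 25 had a log2-fold change above 0 and 22 had one below 0. In 7 members every siSbsn library lay above siControl (14.9%), and in 2 below (4.26%). The median log2-fold change was 0.086, 0.14 with the length trend removed and 0.16 without siControl replicate 3. Besides *Kprp* and *Scel*, the members above included periplakin (*Ppl*, log2-fold change 0.27), envoplakin (*Evpl*, 0.19) and corneodesmosin (*Cdsn*, 0.15). With the length trend removed *Ppl* was 0.18, *Evpl* 0.084 and *Cdsn* 0.19. The transcripts of *Ppl* and *Evpl* are long (6217 and 6384 bases). The 2 below were *Sprr4* (-0.37) and *Crnn* (-0.22). The lowest values were those of *Lce1h* (-0.84, and -0.42 without siControl replicate 3) and *Sprr2e* (-0.63, and -0.43 without that library), at 4.20 CPM or less and with overlapping groups. Involucrin (*Ivl*) had 23.4, 28.4 and 34.5 CPM in siControl and 27.4, 32.7 and 30.0 CPM in siSbsn, and loricrin (*Lor*) had 5.06, 4.57 and 6.16 CPM against 5.92, 6.18 and 4.91 CPM, with groups that overlapped in both. *Lce* and *Sprr* genes made up 30 of the members, and because reads that aligned to several places were dropped, values of these near-identical copies are uncertain. Without siControl replicate 3, 5 members were higher at an edgeR q under 0.05 (*Kprp*, *Scel*, *Ppl*, *Lce1a1* and *Crct1*) and 0 were lower. Over all loci of that fit the shares were 0.421% higher and 0.459% lower.

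Enzymes that cross-link and process the envelope had 12 tested members, 3 above and 2 below. Their median was -0.066 with 6 libraries, -0.020 with the length trend removed and 0.0015 without siControl replicate 3. *Tgm1*, the main transglutaminase of the keratinocyte membrane, had 126, 118 and 144 CPM in siControl and 137, 144 and 138 CPM in siSbsn, with groups that overlapped. *Tgm5* had a log2-fold change of 0.29 and *Tgm2* one of -0.41. The protease gene *Asprv1* had 209, 202 and 223 CPM against 242, 227 and 245 CPM. Its edgeR q was 0.482 with 6 libraries, 0.069 with the length trend removed and 0.046 without siControl replicate 3.

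The suprabasal keratins had 8 tested members, 3 of them below siControl in every siSbsn library and 0 above. These were *Krt1*, *Krt10* and *Krt79*, the last with 1.66, 1.70 and 1.36 CPM against 1.02 CPM in each siSbsn library. The median of the list was -0.024 with 6 libraries and turned positive with the length trend removed (0.012) and without siControl replicate 3 (0.076). *Krt4* and *Krt13*, keratins of inner epithelia, had log2-fold changes of 0.63 and 0.50 at 1.29 CPM or less, with overlapping groups, and of 1.01 and 0.35 without that library. The keratins of the basal layer and of stressed epidermis had 0 of 7 members with groups apart in either direction, and a median of -0.086, of -0.0091 with the length trend removed and of 0.031 without siControl replicate 3. *Krt5* had 7783, 7079 and 8226 CPM in siControl and 7658, 7293 and 6803 CPM in siSbsn (log2-fold change -0.086, standard error 0.081), and *Krt14* had 11658, 10148 and 13745 CPM against 11264, 11386 and 10071 CPM (-0.12, standard error 0.11). The groups therefore overlapped for these 2 basal keratins and did not for *Krt1* and *Krt10*. Of the 5 simple epithelial keratins 2 lay below, *Krt18* (log2-fold change -0.51) and *Krt19* (-0.40). Without siControl replicate 3 these values were -0.35 (edgeR q = 0.0831) and -0.23. The median of these 5 keratins was -0.28, -0.21 with the length trend removed and -0.14 without that library.

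Desmosome genes had a median of 0.19 with 6 libraries, and 8 of 16 tested members lay above siControl in every siSbsn library (50%), with 1 below. The median was 0.15 with the length trend removed and 0.14 without siControl replicate 3, where that of the envelope precursors was 0.16. *Dsp* encodes desmoplakin, which ties the desmosome to keratin filaments. It had 7422, 7721 and 5753 CPM in siControl and 9119.55, 9322 and 8615 CPM in siSbsn (log2-fold change 0.37, standard error 0.11, edgeR q = 0.426). Its transcript is long (9592 bases), and the value was 0.18 with the length trend removed and 0.25 without siControl replicate 3 (edgeR q = 0.0515). *Pof1b*, which encodes a protein found at desmosomes and actin, had 232, 239 and 204 CPM against 291, 280 and 290 CPM (0.35, standard error 0.071, edgeR q = 0.336, and 0.00448 without siControl replicate 3). The other members above were *Dsc3*, *Dsc2*, *Dsg1a*, *Dsg1b*, *Pkp1* and *Jup*, with log2-fold changes from 0.15 to 0.30, and from 0.12 to 0.20 without siControl replicate 3. *Pkp2* was below (-0.14). *Dsg1a* and *Dsg1b* are similar copies, and their reads may not be separated well.

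Other adhesion genes went both ways. Among 12 tight junction genes 4 lay above and 2 below, and claudin 1 (*Cldn1*) had 946, 1001 and 957 CPM in siControl and 1108, 1127 and 1139 CPM in siSbsn (log2-fold change 0.22, edgeR q = 0.384), while claudin 7 (*Cldn7*) had a log2-fold change of -0.45, and of -0.27 without siControl replicate 3. The median of the tight junction genes was -0.010, and it was 0.039 with the length trend removed and 0.041 without that library. Of the 6 hemidesmosome and basement membrane genes tested, 1 lay above and 1 below. *Itga3*, the alpha3 integrin subunit that binds laminin, had 314, 349 and 314 CPM against 272, 261 and 265 CPM (-0.29, standard error 0.063, edgeR q = 0.355, and 0.00398 without siControl replicate 3). *Dst*, whose transcript has 23279 bases, was 0.25 with 6 libraries and -0.16 with the length trend removed, and 0.11 without siControl replicate 3. The median of these 6 genes was -0.012, -0.10 with the length trend removed and -0.064 without that library.

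Genes for the lipids of the barrier had 9 of 25 tested members above siControl in every siSbsn library (36%) and 0 below, with a median of 0.095, of 0.12 with the length trend removed and of 0.094 without siControl replicate 3. Their differences were small. The ceramide synthase gene *Cers3* had 83.6, 82.1 and 88.0 CPM in siControl and 95.9, 100 and 94.1 CPM in siSbsn (log2-fold change 0.19, standard error 0.058, edgeR q = 0.435, and 0.0384 without siControl replicate 3). *Smpd3* and *Pnpla1*, which act on sphingomyelin and on the acylceramides, had log2-fold changes of 0.30 and 0.28, and *Lipn* one of 1.01 at under 1 CPM. Among kallikreins and their inhibitors 1 of 10 lay above, *Spink5*, with 355, 350 and 346 CPM against 398, 391 and 391 CPM (log2-fold change 0.17). With the length trend removed 6 of these 10 genes lay above and 0 below, where 10.6% of all loci lay above. The median of the list was 0.030, 0.13 with the length trend removed and 0.11 without siControl replicate 3.

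Transcription factors of epidermal differentiation had 7 of 26 members above (26.9%) and 2 below, and their median was 0.045 with 6 libraries, 0.022 with the length trend removed and -0.014 without siControl replicate 3. *Grhl1*, a grainyhead factor that acts on desmosomal cadherin genes, had 254, 249 and 243 CPM in siControl and 294, 304 and 285 CPM in siSbsn (log2-fold change 0.24, standard error 0.056, edgeR q = 0.355, and 0.0264 without siControl replicate 3). *Rora* and *Prdm1* had values of 0.41 and 0.25 on the log2 scale, and of 0.24 and 0.15 without siControl replicate 3. Among 16 Notch pathway genes 2 lay above and 3 below, with a median of -0.021, of -0.022 with the length trend removed and of -0.045 without siControl replicate 3. The targets and feedback genes *Hey1*, *Heyl* and *Nrarp* were those below, with log2-fold changes of -0.30, -0.30 and -0.29. *Nrarp* alone was well expressed (42.1, 37.7 and 42.9 CPM against 33.9, 32.3 and 34.2 CPM). Without siControl replicate 3 *Hey1*, *Heyl* and *Nrarp* were -0.22, -0.25 and -0.25, and 0 list members had an edgeR q under 0.05. Of the 16 genes 8 had a log2-fold change above 0 and 8 below 0.

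Genes of the cell cycle and DNA replication had 0 of 33 tested members above and 7 below (21.2%), with a median of -0.10, -0.088 with the length trend removed and -0.087 without siControl replicate 3. *Ccnb2*, *Birc5* and *Cdt1* had log2-fold changes of -0.29, -0.27 and -0.18. *Ccnb2*, a cyclin of mitosis, had 6.83, 7.09 and 7.58 CPM in siControl and 6.02, 6.14 and 5.44 CPM in siSbsn. No member of this list had a q under 0.05 without siControl replicate 3, and 1 (*Cdk2*) had one with quality weights. Of the cyclin-dependent kinase inhibitors 1 of 6 lay above, *Cdkn1b*, and 1 below, *Cdkn2d* (-0.33, and -0.21 without siControl replicate 3). Their median was -0.072, 0.013 with the length trend removed and -0.049 without that library.

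Cytokines and alarmins of the keratinocyte had the lowest median with 6 libraries, -0.37, with 8 of 19 tested members below siControl in every siSbsn library (42.1%) and 0 above. The median was -0.30 with the length trend removed and -0.24 without siControl replicate 3. With the trend removed 5 members were below and 1 above. *Cxcl1* had 3.98, 5.12 and 5.66 CPM in siControl and 2.51, 2.33 and 3.35 CPM in siSbsn (log2-fold change -0.84, standard error 0.18, edgeR q = 0.351, and 0.0334 without siControl replicate 3). *Ccl20*, which attracts lymphocytes and dendritic cells, had 2.85, 3.98 and 6.16 CPM against 1.86, 2.54 and 2.66 CPM, and *Csf3*, which encodes G-CSF, had 3.07, 2.95 and 4.63 CPM against 2.35, 1.93 and 2.09 CPM. These levels were low, and the siControl values differed among themselves. The log2-fold changes of *Ccl20* and *Csf3* were -0.88 and -0.71 with 6 libraries, and -0.57 and -0.48 without siControl replicate 3. *Csf1*, the macrophage growth factor gene, was better expressed, with 64.8, 77.7 and 78.3 CPM against 55.0, 59.4 and 56.2 CPM (-0.37, edgeR q = 0.355, and 0.0173 without siControl replicate 3).

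AP-1 factors and feedback genes of the ERK pathway had 8 of 23 members below (34.8%) and 0 above. Their median was -0.091, -0.073 with the length trend removed and -0.079 without siControl replicate 3. *Jund*, an AP-1 subunit, had 208, 175 and 196 CPM in siControl and 154, 155 and 147 CPM in siSbsn (log2-fold change -0.34, standard error 0.072, edgeR q = 0.351, and 0.00733 without siControl replicate 3). The ERK targets *Phlda1* and *Etv4* had 169, 169 and 214 CPM against 136, 150 and 134 CPM, and 19.4, 19.4 and 21.02 CPM against 15.6, 14.6 and 15.9 CPM. Both had a q under 0.05 without siControl replicate 3 (edgeR q = 0.013 and 0.0318), and *Maff* made the fourth such member (edgeR q = 0.043). *Ier3* had a log2-fold change of -0.36, and of -0.21 without siControl replicate 3 (edgeR q = 0.435, and 0.0703 without that library). Of the EGF receptors and ligands 0 of 9 had groups apart, and their median was 0.087, 0.063 with the length trend removed and 0.00091 without siControl replicate 3.

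Targets of the oxidant response factor NRF2 had 9 of 16 members below (56.3%) and 1 above, with a median of -0.14. With the length trend removed 4 were below and 2 above, and the median was -0.13. The median was -0.075 without siControl replicate 3. *Osgin1*, *Gsta4* and *Nqo1* had log2-fold changes from -0.34 to -0.30. Without siControl replicate 3 they were -0.28, -0.17 and -0.30, and none of the list had a q under 0.05 without siControl replicate 3. Genes of the unfolded protein and integrated stress responses had 4 of 17 members below, *Herpud1*, *Manf* (-0.22), *Vegfa* (-0.17) and *Atf4* (-0.14), and 1 above. Without siControl replicate 3 the last 3 values were -0.14, -0.14 and -0.060. The median of the list was -0.051, -0.023 with the length trend removed and -0.028 without that library. Cholesterol synthesis genes had 2 of 17 above and 2 below, and *Msmo1* had a log2-fold change of -0.28. Their median was -0.070, -0.043 with the length trend removed and -0.054 without siControl replicate 3.

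An siRNA can be sensed by innate receptors and uses the RNA interference machinery. Interferon and RNA-sensing genes had 2 of 31 above and 2 below (6.45% each), with a median of -0.045, of -0.0084 with the length trend removed and of -0.035 without siControl replicate 3. *Bst2* had a log2-fold change of -0.31, *Eif2ak2* (the kinase PKR) one of 0.27 and *Ifit3* one of 0.45 at levels between 1.03 and 2.04 CPM. Without siControl replicate 3 these values were -0.19, 0.17 and 0.36. The RNA interference genes had 1 of 9 above, *Tnrc6c* (log2-fold change 0.21, and 0.093 without siControl replicate 3), and in all 9 the log2-fold change was positive with 6 libraries. Their median was 0.17 with 6 libraries, 0.018 with the length trend removed and 0.043 without siControl replicate 3. Their median transcript length was 8183 bases, against 3482 bases for all loci tested.

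Cytosolic ribosomal protein genes, with a median transcript length of 1051 bases, had 0 of 68 tested loci above and 20 below (29.4%). Their median log2-fold change was -0.18, and it was -0.090 with the length trend removed and -0.047 without siControl replicate 3. With the trend removed 17 were below and 3 above. *Rps19* had 111, 86.8 and 122 CPM in siControl and 81.3, 75.3 and 82.0 CPM in siSbsn. Its edgeR q was 0.0432 without siControl replicate 3, and was not under 0.05 with 6 libraries. *Rpl29*, *Rps13* and *Rps27* had the lowest log2-fold changes (-0.63, -0.52 and -0.49) below 3 CPM, and genes of this family have many near-identical copies, so their counts are uncertain. Nuclear-encoded genes of the respiratory chain, with a median length of 1003 bases, had 5 of 61 below (8.2%) and 0 above, and their median of -0.13 was -0.015 with the length trend removed and -0.014 without siControl replicate 3.

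**Figure D5:**
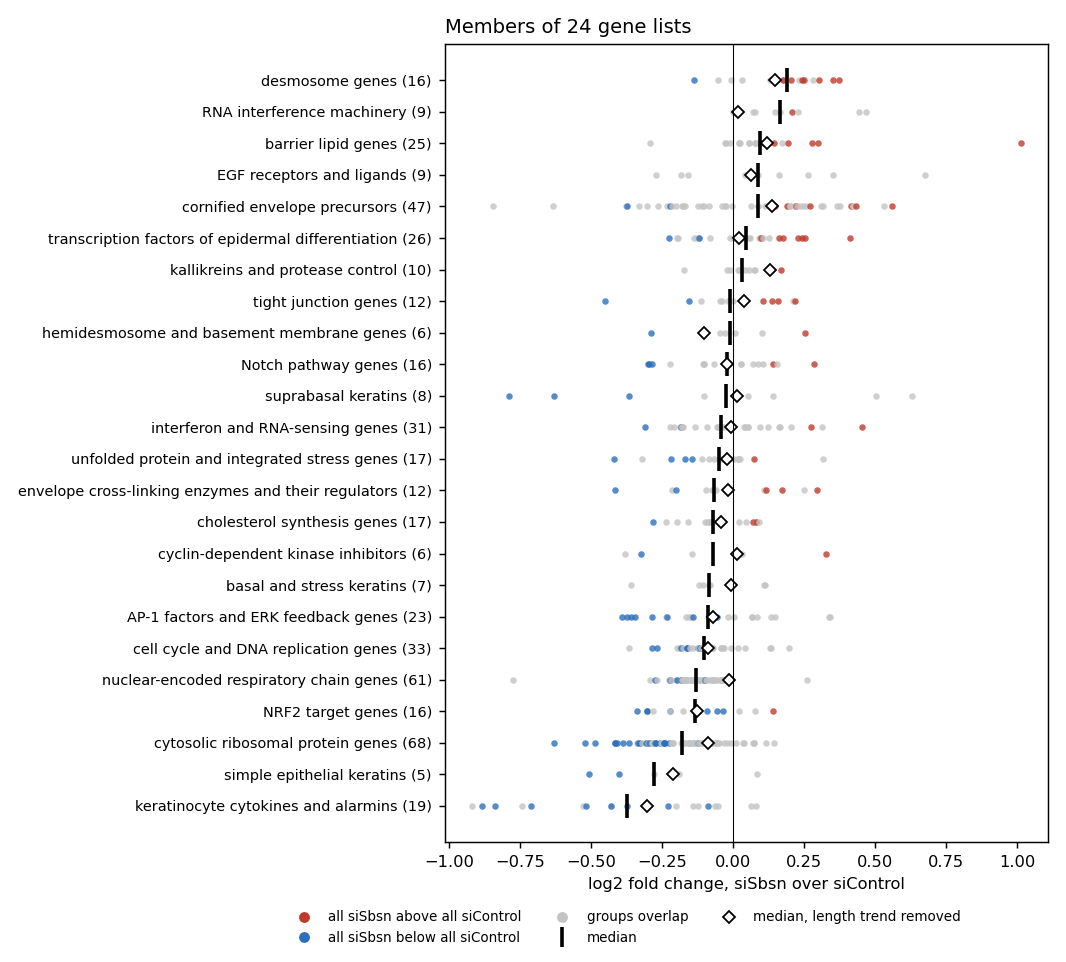
Log2-fold change of siSbsn over siControl (horizontal axis) for the tested members of 24 gene lists, with the number tested in brackets. Red points are members with all siSbsn libraries above all siControl libraries, blue points the reverse, grey points members whose groups overlap, black bars the median and open diamonds the median with the length trend removed. With 6 libraries desmosome genes have the highest median (0.19) and cytokines the lowest (-0.37), and the ribosomal, respiratory chain and RNA interference medians move toward 0 when the length trend is removed.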

How the data were processed

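RNA-Seq counts of 6 libraries were used, 3 siControl and 3 siSbsn, grouped by their sample labels. The deposited values are whole-number counts per locus without normalization, for which the authors aligned reads to mm10 (STAR 2.5.1b, default settings) and counted those with a unique position on UCSC KnownGene genes. Of 21947 loci, 4802 join several names, and 1828 of these include names that share reads. Use of strand is not stated, so antisense partners cannot be told apart. Gene levels rest on 27934836 to 49553923 counts per library.

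Counts were filtered with filterByExpr, scaled by TMM and compared by edgeR 4.0.16 (R 4.3.3, quasi-likelihood). Standard errors were derived from F and the log2-fold change. The permutation test and principal components used log2 of CPM plus 0.5. The authors used DESeq2 with a batch term, and DESeq2 1.42.0 and limma 3.58.1 (voom) were alternatives here, together with other scalings, filters, a smooth trend on transcript length removed as an offset (GENCODE annotation of GRCm38, matched by gene name), and each library left out. Since 1 batch was used, no batch term was fitted. No replicate pair matched within counting noise, and each library was counted as 1 sample. Locus starts are printed after adding 1. The edgeR fits and the length correction were tested on simulated data.

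The genes named are *Sbsn* and its neighbours, every locus called, the 10 higher and 10 lower with the smallest unadjusted p among loci with a log2-fold change past 0.5 and groups that do not overlap, up to 3 members of each list with the largest change among those whose groups do not overlap (otherwise the 2 with the highest level), and *Krt1*, *Krt10*, *Krt5*, *Krt14*, *Ivl*, *Lor*, *Dsp*, *Tgm1* and *Cdkn1b*. Other genes were named after their values were seen. The members and lists were chosen with earlier results of these data known.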

Additional observations from a re-analysis of the deposited data

How the results depend on the processing

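The log2-fold change of *Sbsn* kept its direction and its call in all alternatives, between -1.67 and -1.30 with all 6 libraries, the latter with the beta prior of DESeq2, and between -1.73 and -1.52 with 1 library left out. The count of loci called higher and lower was 0 and 1 under the other scalings, the filter at a mean count of 100, the robust prior, the bias-adjusted deviance, limma-voom and no limit on the fold change. It was 2 and 7 with no filter on low counts, 7 and 17 with the likelihood ratio test, 1 and 6 with DESeq2, 0 and 2 with its beta prior, 51 and 73 with quality weights, and 3 and 3 with the length trend removed. With 1 library left out the counts ranged from 0 to 5 higher and from 1 to 5 lower, and both reached 5 without siControl replicate 3. They were also 5 and 5 when that library was left out and the length trend removed together, an alternative chosen after seeing the data. Loci with groups that do not overlap numbered 1642 to 2998 higher and 1532 to 2449 lower with 1 library left out, where fewer libraries make separation easier.

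Among genes named, the sign turned in some fits, all without a call. With 1 library left out *Krt14* ranged from -0.21 to 0.00054, *Krt17* from -0.17 to 0.055, *Dmkn* from -0.081 to 0.071, *Krtdap* from -0.16 to 0.071, *Ivl* from -0.065 to 0.21 and *Erbb3* from -0.020 to 0.28. With the length trend removed *Krt17* was 0.015, *Krtdap* 0.11, *Dmkn* 0.052, *Tnrc6c* -0.031 and *Dst* -0.16. The end of each range that turned came without siControl replicate 3, except for *Ivl*, where it came without siControl replicate 1 and a value of -0.00137 without siSbsn replicate 5. With both changes *Krt14* was 0.022, *Krt17* 0.077, *Krtdap* 0.098, *Dmkn* 0.089, *Erbb3* -0.035 and *Dst* -0.051. *Dmkn* was 0.0050 with quality weights and 0.01 without siSbsn replicate 6.

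No paired analysis was possible because siControl replicates 1 to 3 and siSbsn replicates 4 to 6 share no replicate number. The design has 3 libraries a group, 1 of which stands apart, and the depth limits values under about 1 CPM.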
